A study of Mus musculus with 33 samples.

Results

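Of the 8161 H3K27me3 domains listed in wild-type (WT) mouse embryonic stem cells (mESCs), 7752 were shorter than 400 kb. By the rule given next, 277 of these (3.57%) were kept in mESCs that lack Uhrf1. They are called kept domains here. A WT domain counted as kept when it overlapped, by at least 1 bp, an H3K27me3 domain of the Uhrf1 knockout (KO) list with a mean read count per bin of 1 or more, and the other 7475 domains below the length limit are called not kept. Not all of the latter were missing from the KO list: 364 overlapped only KO domains with a count under 1, and 7111 overlapped no KO domain. The members were thus chosen by the H3K27me3 values of both mESC libraries, which are given as a description, with no test. The study profiled histone marks, Uhrf1 and the pluripotency factors Oct4, Sox2 and Nanog by chromatin immunoprecipitation and sequencing in WT E14 mESCs, in Uhrf1 KO mESCs, and in embryoid bodies (EBs) grown from both for 1, 2 or 3 weeks. E14 is a mouse embryonic stem cell line, an EB is an aggregate in which such cells differentiate, and both the E14 and the KO cells came from another laboratory and were kept on gelatin or on embryonic fibroblasts. Each of the 33 samples is the only library of its group, with 17 WT and 16 Uhrf1 KO samples, so a difference between genotypes or stages has no replicate check and a property of the cell line cannot be told apart from the deletion. All intervals are 95% intervals for counting error over domains, or over genes where shares of genes are given. Neither domains nor genes are replicates of a condition. Genes that share a domain are kept together, so the intervals over genes can be too narrow.

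Uhrf1 is a nuclear protein that binds hemimethylated DNA and modified histone H3 tails and brings the methyltransferase Dnmt1 to replicating DNA. H3K27me3 is laid down by Polycomb repressive complex 2 and marks genes that are held silent. In embryonic stem cells it often lies at CpG islands of developmental regulators together with H3K4me3, the mark of promoters that are active or ready for use, and such doubly marked sites are called bivalent. Imprinted genes and clustered gene families also carry broad H3K27me3 domains.

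The kept domains with developmental genes lie over dense CpG sequence, and so do comparable domains that were not kept. To show this, the 200 bases richest in CpG are printed for 4 kept domains, in order of their KO level, all on the plus strand of build NCBIM37 (mm9) with each CpG in capitals. The window of the Fgf11 domain (chr11:69617344-69617543) overlaps coding sequence of the neighbouring gene Tmem102 and holds 27 CpG. That of Neurod2 (chr11:98200201-98200400) is intergenic, 9239 bases from the gene start, with 35 CpG. The Nkx2-3 window (chr19:43689079-43689278) overlaps coding sequence of Nkx2-3 and holds 34 CpG. The Otp window (chr13:95638990-95639189) is intergenic with 30 CpG.
Fgf11: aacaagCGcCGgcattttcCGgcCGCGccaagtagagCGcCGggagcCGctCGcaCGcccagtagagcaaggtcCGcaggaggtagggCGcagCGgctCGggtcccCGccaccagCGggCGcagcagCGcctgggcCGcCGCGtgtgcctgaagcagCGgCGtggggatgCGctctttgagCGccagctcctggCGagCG
Neurod2: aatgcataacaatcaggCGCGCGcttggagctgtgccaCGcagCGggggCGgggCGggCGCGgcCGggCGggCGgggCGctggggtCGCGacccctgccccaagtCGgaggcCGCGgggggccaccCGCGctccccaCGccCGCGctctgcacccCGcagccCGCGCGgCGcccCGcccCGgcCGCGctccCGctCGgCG
Nkx2-3: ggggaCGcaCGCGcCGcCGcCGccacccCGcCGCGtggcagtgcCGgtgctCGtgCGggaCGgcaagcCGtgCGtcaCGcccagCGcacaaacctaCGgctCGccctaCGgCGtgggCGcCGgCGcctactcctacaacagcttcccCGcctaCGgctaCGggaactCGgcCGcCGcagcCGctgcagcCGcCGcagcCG
Otp: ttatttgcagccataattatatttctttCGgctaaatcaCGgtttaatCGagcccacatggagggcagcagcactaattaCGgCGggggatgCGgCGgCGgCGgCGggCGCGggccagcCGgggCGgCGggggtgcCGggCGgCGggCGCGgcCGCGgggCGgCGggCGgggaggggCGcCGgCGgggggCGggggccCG

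For comparison, the same window is printed for the 3 domains with developmental gene starts that had the highest WT level among those not kept. The Lhx4 window (chr1:157589948-157590147) is intergenic, 791 bases from the gene start, and holds 28 CpG. The Wnt1 window (chr15:98622863-98623062) overlaps coding sequence of Wnt1 and holds 31 CpG. The Cdx4 window (chrX:100517215-100517414) overlaps coding sequence of Cdx4 and holds 15 CpG. Apart from Cdx4, the windows not kept are as CpG-rich as the kept ones, and the WT levels of these domains were 17.6 reads per bin at Lhx4, 15.6 at Wnt1 and 15.2 at Cdx4. The Wnt1 domain overlapped a KO domain with 0.908 reads per bin, under the minimum of 1, while those of Lhx4 and Cdx4 overlapped none.
Lhx4: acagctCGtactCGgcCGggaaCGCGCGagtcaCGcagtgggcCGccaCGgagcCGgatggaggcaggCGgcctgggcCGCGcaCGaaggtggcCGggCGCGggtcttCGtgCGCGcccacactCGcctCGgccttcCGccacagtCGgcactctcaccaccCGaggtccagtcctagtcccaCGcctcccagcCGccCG
Wnt1: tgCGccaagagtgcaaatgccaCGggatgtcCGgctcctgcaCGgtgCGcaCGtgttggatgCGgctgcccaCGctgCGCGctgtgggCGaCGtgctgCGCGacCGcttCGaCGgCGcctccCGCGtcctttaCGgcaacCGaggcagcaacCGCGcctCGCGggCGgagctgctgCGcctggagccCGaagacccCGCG
Cdx4: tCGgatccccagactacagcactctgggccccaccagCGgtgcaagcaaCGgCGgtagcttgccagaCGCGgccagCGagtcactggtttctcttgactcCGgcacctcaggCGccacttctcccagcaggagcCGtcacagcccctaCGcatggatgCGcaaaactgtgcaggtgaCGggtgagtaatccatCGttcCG

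The kept domains had higher WT H3K27me3 levels as a group, which the choice of members favours, and most of them were found at a much lower count in the KO list. Their median WT level was 8.64 reads per 1800 bp bin (quartiles 6.77 to 11.5), against 4.90 (4.16 to 6.14) in the domains not kept. The full ranges overlapped widely, from 3.44 to 182 in kept domains and from 3.04 to 115 in the others. In the KO the same 277 domains had a median of 1.95 reads per 1500 bp bin (quartiles 1.47 to 2.73, highest 41.2). This KO level is the highest mean count among the KO domains that a kept domain overlaps. It is a mean over that KO domain, which can cover a small part of the kept domain or reach past it. Counts were low in the KO list as a whole, whose 722 domains had a median of 0.914 reads per bin and covered 84.1 Mb. The WT mESC list had a median of 4.93 and covered 960 Mb. Of the KO domains, 333 reached the minimum of 1 and 27 had a count of 0. It is unclear whether the counts in these lists are scaled to library depth, and the bins differ in length, so the drop in count between the lists is not a measured loss. The kept domains were somewhat shorter than the rest, with a median of 43.2 kb against 57.6 kb. KO domains covered a median of 99.6% of a kept domain (lower quartile 84.5%, lowest 3.85%). Behind the 277 kept domains stood 244 distinct KO domains, and 61 kept domains shared theirs with another one.

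**Figure D1:**
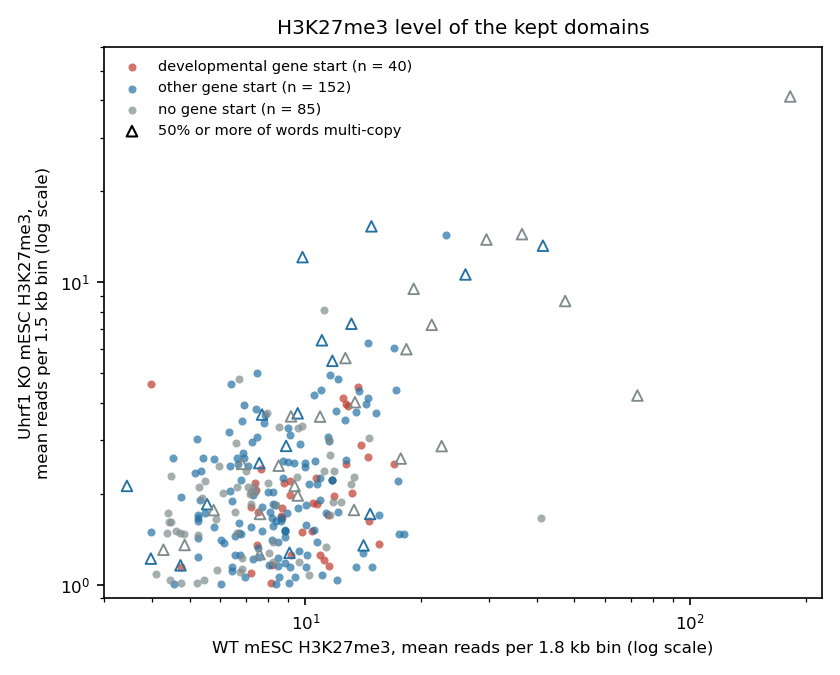
Each point is 1 of the 277 kept domains, with its WT mESC H3K27me3 level (mean reads per 1800 bp bin, x) and the highest level among the KO domains it overlaps (mean reads per 1500 bp bin, y), both on log scales. Open triangles are domains with 50% or more multi-copy words, and they make up 9 of the 10 domains with the highest KO level.

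Most of the highest KO levels were in repeated sequence. To describe repeated sequence, 100 words of 31 bases were sampled in each domain, and a word found more than once in the genome was called multi-copy. In 9 of the 10 kept domains with the highest KO level, 50% or more of the words were multi-copy, and 5 of the 10 held no coding gene start. A 1.8 kb domain at chr8:19938601-19940400 stood highest, with 182 reads per bin in WT and 41.2 in KO and with 93% multi-copy words. The domain of the class I histocompatibility genes H2-Q2, H2-Q4 and H2-Q6 (chr17:35443801-35573400) had 14.8 in WT and 15.3 in KO, and KO domains covered 14.6% of it. The other gene-bearing ones of this kind held Speer4a with its neighbours, the zinc finger genes Zfp868 and Zfp964, and H60b with Raet1c, which encode ligands of the natural killer receptor NKG2D. Reads in such sequence were each placed at 1 of several equal positions, and the part of this in the levels was not tested. The exception was the domain of Hes7 (chr11:68923801-68936400), a bHLH factor and Notch target of the somite clock that is not in the developmental lists used below, with 23.2 reads per bin in WT, 14.4 in KO and 5% multi-copy words. Over all kept domains, 42 of 277 (15.2%) had 50% or more multi-copy words, against 285 of 7475 (3.81%) of those not kept.

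Just inside the limit on the KO level lay the domains of the imprinted gene Dlk1 and of its neighbour Begain, which share 1 KO domain with 1.00 reads per bin, and the domain of Skor2 with 1.00. Just outside lay a chromosome 11 domain without a coding gene start at 0.993, the Drd4 domain at 0.992 and another chromosome 11 domain at 0.989. The longest kept domains, with Wnt6, Wnt10a and Ihh (399.6 kb) and with the granzyme genes Gzma and Gzmk (345.6 kb), lay below the length limit, while those of the Cd209 lectin genes (426.6 kb) and of Igf2, Ins2 and Ascl2 (432 kb) lay above it. Dlk1 (345.6 kb), Pax2 (324 kb) and a domain of keratin-associated Krtap5 genes with Dusp8 (306 kb) complete the 5 longest. In all, 9 WT domains above the limit also overlapped a KO domain with a level of 1 or more. They held all 39 annotated genes of the 4 Hox clusters and all 24 annotated clustered protocadherin genes, so neither family has a member among the kept domains. The HoxB domain had the highest KO level of these 9, 9.39 reads per bin, followed by the HoxC domain with 8.08 and the imprinted domain of Kcnq1, Cdkn1c and Phlda2 with 7.11.

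Listed developmental regulators were kept more often than the coding genes outside the lists that lie in WT H3K27me3 domains. Of the 5295 coding genes with a start in a WT domain below the length limit, 381 (7.20%) started in a kept domain. The developmental lists hold selected homeobox, forkhead, T-box, Sox, Gata, Pax and basic helix-loop-helix (bHLH) factors and selected Wnt, FGF, TGF-beta and Hedgehog signals with Wnt receptors and secreted antagonists. They are not complete: Hes7, Heyl and Sim2, which are bHLH factors, and the TGF-beta family ligand Bmp8b were kept but are not listed, and these 4 were named after their values were seen. Among the listed genes together it was 51 of 230 (22.2%, interval 17.3 to 28.0), against 330 of 5065 (6.52%, 5.87 to 7.23) of the coding genes outside the lists. The difference was 15.7 percentage points (10.7 to 21.5), and without chromosome 11, which is described further on, it was 12.8 points (8.23 to 18.6). These 51 genes stood in 40 kept domains, and 169 domains with starts of the same lists were not kept, so 19.1% of such domains were kept (2.70% of all domains below the limit are of this class). Another 152 kept domains held starts of coding genes outside the lists only and 85 held none, which is 5.06% and 1.87% of the WT domains of those classes (38.7% and 58.6% of all). A coding gene start of any kind lay in 192 kept domains (69.3%) against 40.4% of the others (41.4% of all), a difference of 28.9 points (23.2 to 34.2).

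Homeobox genes outside the Hox clusters made up the largest share of these genes, with 28 of 98 kept (28.6%, interval 20.6 to 38.2). Among them, Nkx2-3 (12.7 reads per bin in WT, 3.96 in KO), Otp (12.9 and 3.90) and Nkx2-5 (13.96 and 2.89) had the highest KO levels. Nkx2-5 is a factor of the early heart, Otp of the hypothalamus and Nkx2-3 of gut and spleen. Neighbouring homeobox genes were often kept in 1 domain, as Gsx1, Pdx1 and Cdx2 (11.7 and 2.23), Tlx1 and Lbx1 (9.80 and 1.49), Tlx2 and Lbx2 (10.9 and 1.26) and Dlx3 and Dlx4 (8.66 and 1.68). Further kept homeobox genes were Six6, Dmbx1, Lhx1, Lhx2, Lhx5, En2, Mnx1, Vax2, Uncx, Tlx3, Dbx1, Pou4f3, Hesx1 and Onecut3, with KO levels from 1.15 at Onecut3 to 2.64 at Dmbx1.

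Of the listed signals, receptors and antagonists, 10 of 55 were kept (18.2%, interval 10.2 to 30.3), and 8 of these are Wnt ligands, which act in patterning of the axis, the limbs and the brain. Wnt6 and Wnt10a shared a domain with the Hedgehog ligand Ihh (9.12 reads per bin in WT, 2.20 in KO). Wnt3a shared one with Wnt9a (11.9 and 1.96) and Wnt3 one with Wnt9b (14.6 and 1.63), while Wnt8a (13.2 and 2.00) and Wnt8b (7.39 and 2.17) stood apart. Fgf11 was the remaining listed one, and its domain was 1 of 3 kept domains with a higher count in KO (4.60) than in WT (3.98). Its KO count is that of a 16.5 kb KO domain (chr11:69619501-69636000) that does not hold the Fgf11 start. The WT count is the mean over 52.2 kb, so the counts are not of the same stretch. The others, those of H2-Q2 and Zfp868 with their neighbours, were covered by KO domains over 14.6% and 5.49%. Among the listed bHLH factors 5 of 26 were kept (19.2%, 8.51 to 37.9): the neurogenic Neurod2 (13.7 and 4.51) and Neurog2 (10.6 and 2.25), Hand1 of heart and placenta (12.5 and 4.15), and the mesodermal pair Mesp1 and Mesp2 (4.75 and 1.15). T-box genes had 3 of 10 kept, Eomes (7.24 and 1.10) and the pair Tbx2 and Tbx4 (10.7 and 1.84). Smaller counts were found for forkhead (2 of 19, Foxb1 and Foxd1), Sox (1 of 11, Sox18), Gata (1 of 5, Gata4) and Pax genes (1 of 6, Pax2).

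The other gene families gave mixed shares. Olfactory receptor genes, the largest family in WT domains, had 3 of 451 kept (0.665%, interval 0.226 to 1.94), which lies below the 7.20% of all coding genes. Vomeronasal receptor genes had 2 of 115 kept (1.74%, 0.478 to 6.12), and potassium channel genes 2 of 44 (4.55%, 1.26 to 15.1). Germline genes had 0 of 17 and defensins 0 of 27, with upper bounds of 18.4% and 12.5%. Zinc finger genes of the Zfp series (5 of 62, 8.06%), cytochrome P450 genes (2 of 28, 7.14%), imprinted genes (2 of 9, Grb10 and Dlk1) and histone genes (1 of 3) had intervals that include 7.20%, as did the potassium channel genes. Keratin and keratin-associated genes had 4 of 14 kept (28.6%, 11.7 to 54.7), but these were 4 Krtap5 genes that share 1 domain. Of the 12 genes the study displays, Nkx2-5 was kept. Nes, Otx2, Neurod1, Ednra and Wnt2b lay in domains not kept, Hand2, Msx2 and Tbx5 in domains above the length limit, and Klf2, Sall1 and Tubb3 had no WT domain at their start. Of those not kept, the Nes and Wnt2b domains overlapped KO domains with 0.688 and 0.644 reads per bin, under the minimum of 1. The Otx2, Neurod1 and Ednra domains overlapped none.

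CpG content set gene-bearing domains apart from the others more than it set kept domains apart within a class. The 300 bases richest in CpG held a median of 33 CpG in kept domains and 20 in the others. Among domains with a developmental gene start the medians were 43 and 41, among those with other coding gene starts 38 and 32, and among those with none 14 and 14. The richest window is a maximum over the domain and can rise with its length. Kept domains of these classes had median lengths of 135, 54 and 23.4 kb, and the classes were not matched for length. Kept domains had a median GC content of 45.6% against 41.3%, and an observed over expected CpG ratio of 0.225 against 0.176. WT H3K27me3 level, by contrast, was higher in the kept domains of each class, with medians of 10.4 against 6.46, 8.59 against 5.17 and 7.92 against 4.68 reads per bin, a difference that the choice of members favours.

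**Figure D2:**
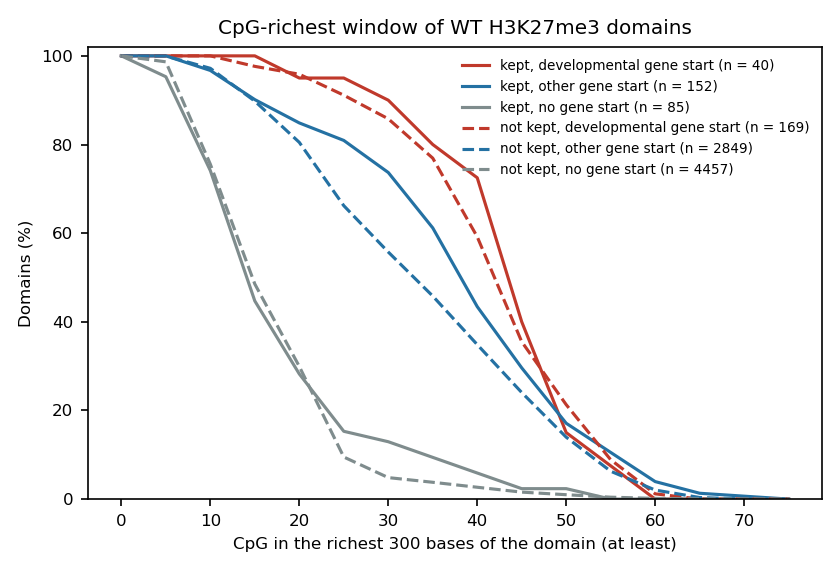
Share of domains (y, %) whose richest 300 bases hold at least the number of CpG on the x axis, for kept (solid) and not kept (dashed) domains with a developmental gene start (red), another coding gene start (blue) or none (grey). The red pair and the grey pair run close together, with medians of 43 and 41 and of 14 and 14 CpG.

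Chromosome 11 held 76 of the 277 kept domains (27.4%) but 367 of the 7752 WT domains below the length limit (4.73%). There, 20.7% of the WT domains were kept (interval 16.9 to 25.1), while the other chromosomes ranged from 0 of 181 on chromosome X to 5.03% on chromosome 17. Together the others kept 201 of 7385 (2.72%), which is 17.99 points less than chromosome 11 (14.1 to 22.4). The 76 domains overlapped 70 distinct KO domains. Of all 722 KO mESC H3K27me3 domains, 155 (21.5%) lay on chromosome 11, against 5.05% of the WT list. The genes there included Fgf11, Neurod2, Hand1, Lhx1, Tlx3, the pairs Wnt3a and Wnt9a, Wnt3 and Wnt9b, Tbx2 and Tbx4, and Dlx3 and Dlx4, and the imprinted Grb10 (17.4 reads per bin in WT, 2.20 in KO).

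**Figure D3:**
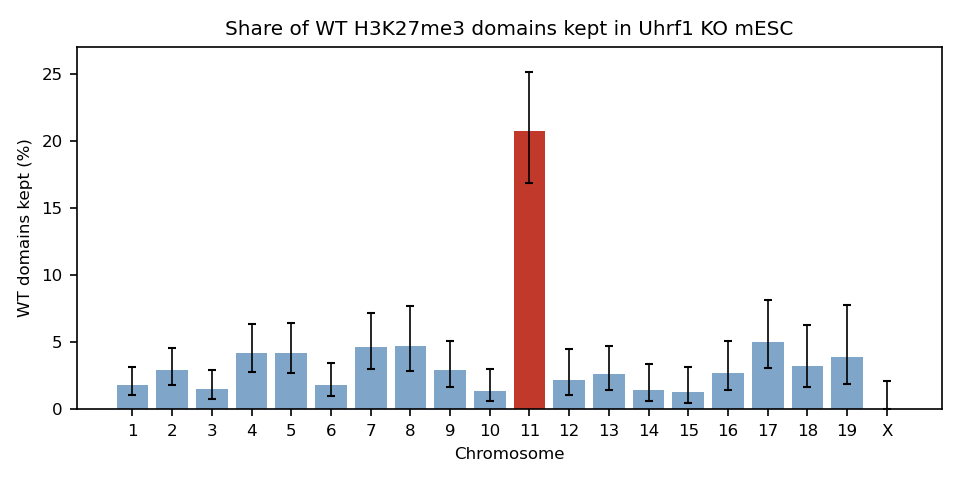
Share of WT H3K27me3 domains below 400 kb that were kept in Uhrf1 KO mESCs (y, %) on each chromosome (x), with Wilson 95% intervals. Chromosome 11, in red, stands at 20.7%, and all the others at or below 5.03%.

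Other lists also stood apart on this chromosome. The KO H3K9me3 domains covered 96.3% of chromosome 11 but 14.2% to 58.5% of each other autosome, and the WT H3K9me3 domains covered 76.2% of it, within the range of the others (16.6% to 81.0%). KO H3K27me3 domains covered 12.2% of it in mESCs, against at most 6.69% elsewhere, and 29.9% in week 1 EBs, against at most 9.93%. In WT, week 1 EB H3K27me3 (14.2% against at most 9.24%) and mESC H3K4me3 (23.4% against at most 12.6%) covered more of chromosome 11 than of any other autosome as well. So did WT week 1 EB H3K4me3, H3K4me3 in KO mESCs and in KO EBs of each week, and KO week 2 EB H3K27me3 (49.0% against at most 36.2%). The remaining histone lists lay within the range of the others. Uhrf1 windows covered 2.30% of chromosome 11, less than of any other autosome (at least 2.94%). The input libraries were not analysed here, and the part of this wider coverage in the count of kept domains was not tested. The mESC comparisons of H3K4me3, H3K9me3 and Uhrf1 and the EB comparisons of H3K27me3 by week were also made without chromosome 11, and the other comparisons that follow were not.

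Of H3K4me3, H3K9me3 and Uhrf1, H3K4me3 gave the widest gap between kept and other domains in mESCs. In WT, 241 of the 277 kept domains (87.0%, interval 82.5 to 90.5) overlapped an H3K4me3 domain, where the share over all WT domains below the length limit was 44.2% and that of the domains not kept 42.6%. The difference from the domains not kept was 44.4 points (39.8 to 48.1), and 43.8 points without chromosome 11. It was smaller, 25.8 points (21.5 to 30.0), when domains were compared within 5 groups of like WT H3K27me3 level. In the KO, 210 kept domains (75.8%) overlapped H3K4me3, against 33.0% of all and 31.4% of those not kept, and the difference was 44.4 points (38.9 to 49.2), 41.7 without chromosome 11 and 28.6 within the groups of like level. On chromosome 11 alone the KO difference was 29.5 points (18.4 to 38.0). KO mESCs have 1 input sample in the study, so the KO H3K4me3 and H3K27me3 lists are not independent of each other.

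Kept domains that carried H3K4me3 in WT mostly carried it in the KO too. In KO mESCs both H3K27me3 and H3K4me3 were found in these 210 kept domains, against 5.57% of all WT domains below the length limit, a share that the choice of members sets. H3K4me3 was present in both genotypes in 207 domains (74.7% of kept, 31.2% of all), in WT alone in 34, in KO alone in 3 and in neither in 33. Of the WT H3K4me3-marked domains, 85.9% of the kept (207 of 241) and 69.6% of the others (2214 of 3182) had it in the KO, a difference of 16.3 points (11.1 to 20.5). All 40 kept domains with developmental gene starts had H3K4me3 in WT, and 34 had it in the KO. Most of the 169 developmental domains not kept had it too, 149 (88.2%) in WT and 115 (68.0%) in KO. The differences were 11.8 points (2.19 to 17.6) in WT and 17.0 (1.43 to 27.8) in KO. The 6 kept developmental domains without it in the KO were those of Nkx2-5, Lhx5, Wnt3a with Wnt9a, Uncx, Gata4 and Onecut3. Their WT H3K4me3 levels ran from 7.23 reads per bin at Uncx to 13.8 at Lhx5. Of the 36 kept domains without WT H3K4me3, 15 had 50% or more multi-copy words.

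**Figure D4:**
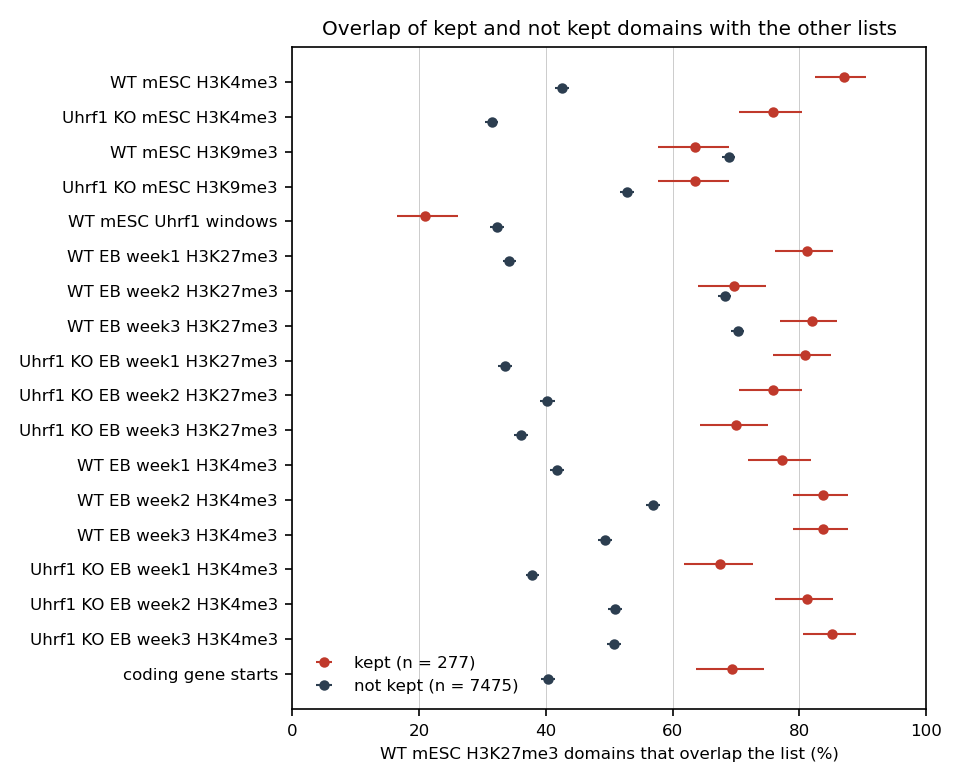
Share of kept (red) and not kept (dark) WT mESC H3K27me3 domains that overlap each list named on the y axis (x, %), with Wilson 95% intervals. The red point lies to the right for both mESC H3K4me3 lists (87.0% and 75.8% against 42.6% and 31.4%) and to the left for Uhrf1 windows (20.9% against 32.3%).

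In EBs, kept domains carried H3K27me3 more often than the others in every KO list and in WT at weeks 1 and 3. At week 1, 225 (81.2%, interval 76.2 to 85.4) of the kept domains overlapped a WT EB H3K27me3 domain and 224 (80.9%, 75.8 to 85.1) a KO one. Over all WT mESC domains below the length limit these shares were 35.9% and 35.2%, and over those not kept 34.2% and 33.5%. The differences were 47.0 points (41.9 to 51.3) in WT and 47.3 points (42.2 to 51.7) in KO, and 45.7 and 46.3 without chromosome 11. On chromosome 11 alone they were 20.8 points (10.3 to 28.6) in WT and 13.2 (2.98 to 20.9) in KO. Within 5 groups of like WT mESC level they were 30.7 and 33.2 points.

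The weeks differed in WT. At week 2 the WT list, whose domains cover 1165 Mb, overlapped 69.7% of kept and 68.3% of not kept domains (68.3% of all), a difference of 1.42 points (-4.33 to 6.64) that includes 0. It was -20.8 points (-26.1 to -15.0) against domains above the list's median score and 12.3 points (6.69 to 17.9) within the groups of like level, so its direction depends on the setting. At week 3 the shares were 81.9% and 70.3% (70.7% of all), a difference of 11.7 points (6.61 to 15.9) that ran from 3.12 to 24.4 under other rules for an overlap. The lowest of these, 3.12 points, has an interval (-2.85 to 9.06) that includes 0. By class, each WT week 3 interval includes 0. The differences were 2.96 points (-5.96 to 6.74) with a developmental gene start, 1.95 (-4.90 to 7.20) with another and 8.57 (-1.93 to 17.3) with none. In the KO the differences stayed wide, with 75.8% against 40.3% at week 2 (41.5% of all), or 35.6 points (30.1 to 40.4), and 70.0% against 36.0% at week 3 (37.2% of all), or 34.0 points (28.3 to 39.2). KO lists at weeks 2 and 3 covered 467 and 420 Mb, so the lists differ in how much of the genome was called. On chromosome 11 alone the KO difference at week 2 was 9.53 points (interval from -2.05 to 18.97), and that at week 3 was 11.8 (from -0.255 to 21.9). Among developmental domains the KO difference was 7.75 points (-6.23 to 16.6) at week 2 and 12.8 (0.198 to 20.2) at week 3.

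Where EB domains were present, their levels over kept domains were also higher. In the KO at week 1 the median level of the overlapped domain was 12.7 reads per bin over 224 kept domains (quartiles 10.7 to 15.2) and 10.2 (8.84 to 12.1) over the others. At week 3 in the KO the medians were 6.78 (5.53 to 8.16) and 5.05 (4.54 to 5.84), and in WT 11.8 (10.1 to 15.4) and 8.61 (7.86 to 9.81). The quartile ranges overlapped in KO at week 1 and week 3 and did not in WT at week 3.

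All 6 EB lists overlapped 149 kept domains (53.8%) and 1044 of the others (13.97%), where the share over all was 15.4%. The difference was 39.8 points (33.9 to 45.7). Kept domains in none of the 6 numbered 19 (6.86%, against 9.81% of those not kept and 9.70% of all), a difference of -2.95 points (-5.47 to 0.717). Of the 40 kept developmental domains, 36 (90.0%) were in all 6 lists, against 118 of 169 (69.8%) developmental domains not kept, 20.2 points more (5.63 to 29.7). The 4 exceptions were Fgf11 and Sox18, Hesx1 and the Mesp1 and Mesp2 domain. The last was absent from WT EBs at weeks 1 and 2 and from KO EBs at weeks 2 and 3, while Fgf11 was absent at week 2 in both genotypes and Sox18 at week 2 in KO alone.

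**Figure D5:**
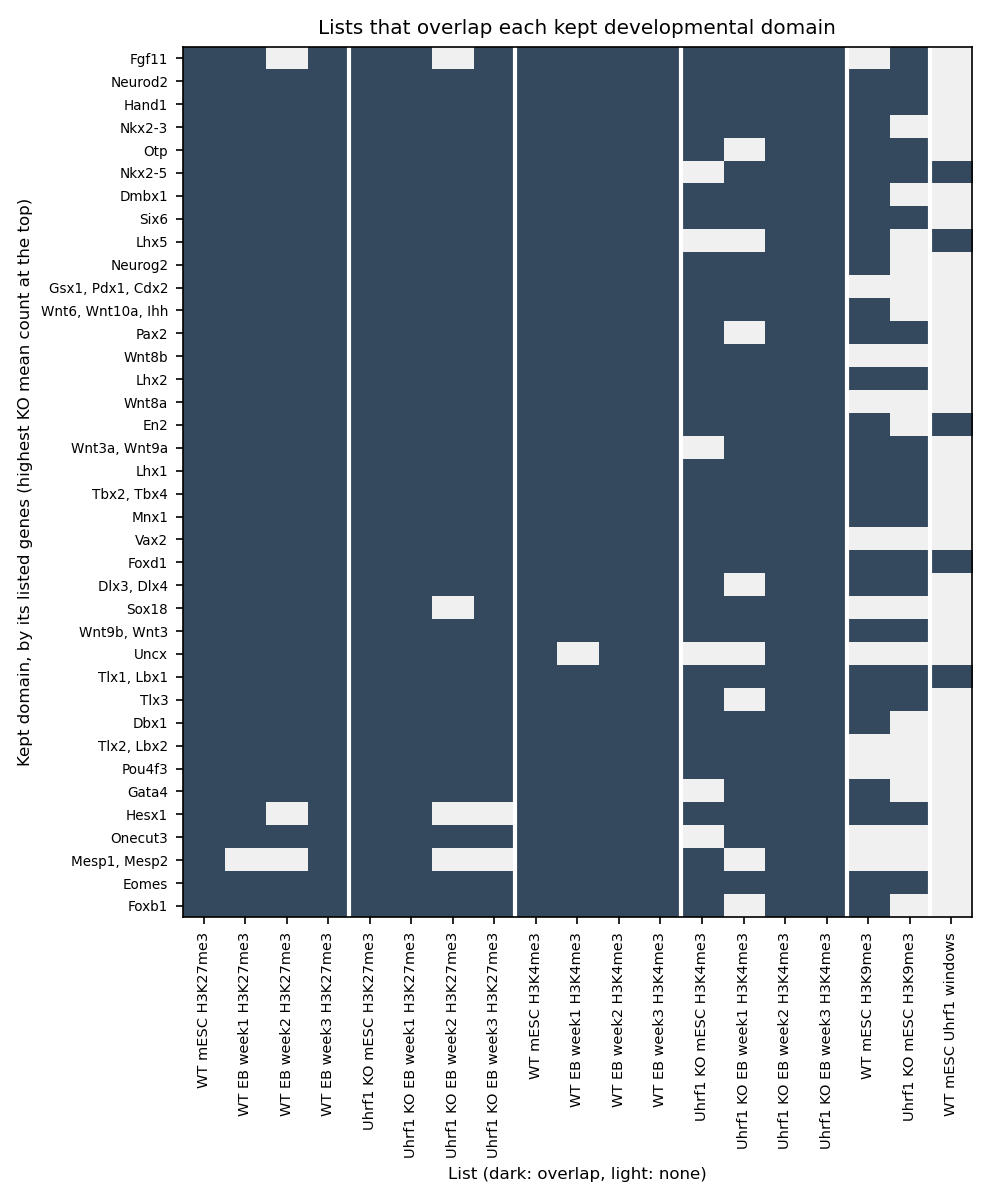
Each row is 1 of 38 of the 40 kept domains with a developmental gene start, ordered by KO mESC H3K27me3 level, and each column a list, dark where a region of the list overlaps the domain. H3K27me3 columns are dark in 34 rows throughout, and the 6 light cells of KO mESC H3K4me3 are Nkx2-5, Lhx5, Wnt3a with Wnt9a, Uncx, Gata4 and Onecut3.

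Single members read as follows across the libraries, each as the mean reads per bin of the overlapped domain, which are not scaled between libraries. At Nkx2-5 (chr17:26929801-27000000), H3K27me3 stood at 13.96 in WT mESCs and at 15.1, 13.6 and 20.2 in WT EBs of weeks 1, 2 and 3. In the KO it stood at 2.89 in mESCs and at 11.8, 10.9 and 6.82 in the EBs. H3K4me3 was 10.5 in WT mESCs, absent from the KO mESC list, and 10.8, 5.74 and 19 in KO EBs. The domain thus overlapped H3K27me3 in all 8 lists, and H3K4me3 was missing in 1 of 8. An overlap of 1 bp anywhere in its 70.2 kb was enough, and H3K27me3 at the promoter itself was not measured here. The study reports that this mark was lost from the promoter of this gene in KO EBs. The domain values cannot decide on that, because they are not values of the promoter.

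At Hand1 (chr11:57637801-57677400) both marks were listed in all 16 libraries. H3K27me3 was 12.5 in WT mESCs and 19.9, 11.5 and 18.1 in WT EBs, and in the KO it was 4.15 in mESCs and 13.7, 8.14 and 7.27 in EBs. H3K4me3 was 9.93 in WT and 9.03 in KO mESCs, and was highest at week 1 in both genotypes, at 22.1 and 17.7. The Mesp1 and Mesp2 domain (chr7:86929201-86965200) was the weakest of the developmental domains after Fgf11 by WT level, at 4.75 in WT and 1.15 in KO mESCs, and had H3K27me3 in EBs at 8.44 in WT week 3 and 8.73 in KO week 1 only. Its H3K4me3 was listed in 7 of 8 lists, with KO week 1 missing.

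H3K4me3 in EBs followed the same order. Kept domains overlapped it in 77.3% at week 1, 83.8% at week 2 and 83.8% at week 3 in WT (43.1%, 57.8% and 50.6% of all), and in 67.5%, 81.2% and 85.2% in KO (38.9%, 52.0% and 52.0% of all). The differences from domains not kept ran from 26.9 points (22.0 to 30.9) in WT week 2 to 35.5 points (30.1 to 40.1) in WT week 1. Both H3K27me3 and H3K4me3 were found at week 1 in 187 kept domains in WT (67.5%, 27.9% of all) and 160 in KO (57.8%, 21.5% of all). At week 2 the order was the other way, with both marks in 168 in WT (60.6%, 36.5% of all) and 177 in KO (63.9%, 27.9% of all). At week 3 both marks were found in 200 in WT (72.2%, 40.0% of all) and 173 in KO (62.5%, 25.5% of all).

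H3K9me3, the mark of constitutive heterochromatin, did not separate kept from other domains in a stable way. In WT it overlapped 176 kept domains (63.5%, interval 57.7 to 69.0) and 68.9% of the others (68.7% of all), a difference of -5.33 points (-11.2 to 0.218). In KO it overlapped 176 as well (63.5%) and 52.8% of the others (53.2% of all), a difference of 10.7 points (4.82 to 16.3). Without chromosome 11, which KO H3K9me3 covered nearly throughout, the KO difference was -1.17 points (-8.11 to 5.78) and the WT difference -10.3 (-17.3 to -3.58). Within 5 groups of like WT H3K27me3 level the WT difference turned to 11.2 points (5.19 to 17.1) and the KO difference was 18.1 (12.1 to 24.1). The 176 were not the same domains: 142 had H3K9me3 in both, 34 in WT alone and 34 in KO alone.

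Uhrf1 windows were found at a smaller share of kept domains, a difference that did not hold among domains of like WT level. The study listed 10 kb windows with Uhrf1 enrichment in WT mESCs, and 58 kept domains (20.9%, interval 16.6 to 26.1) overlapped one, against 32.3% of the domains not kept (31.9% of all). The difference was -11.4 points (-15.9 to -6.08), -6.47 points (-12.2 to 0.113) without chromosome 11, and 2.85 points (-2.08 to 7.78) within 5 groups of like WT H3K27me3 level, where its direction turned. Kept domains were shorter, and within 5 groups of length it was -7.48 points (-12.3 to -2.71), with 5.06 windows per Mb in kept and 5.87 in other domains. Multi-copy sequence moved with this value. Among domains with 50% or more multi-copy words 35 of 42 kept ones (83.3%) and 69.1% of the others had a window, and among the rest 23 of 235 kept ones (9.79%, 6.61 to 14.3) and 30.8% of the others. Of the 40 developmental kept domains 5 had a window, those of Nkx2-5, Lhx5, En2, Foxd1 and Tlx1 with Lbx1, against 45 of 169 developmental domains not kept, a difference of -14.1 points (-24.1 to 0.785).

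Over all kept domains, pluripotency factor summits were more frequent than in the others in both genotypes, but for Oct4 and Nanog not in every class of domain. A Sox2 summit lay in 94 kept domains in WT (33.9%, 11.6% of all) and in 160 in KO (57.8%, 30.8% of all), and the differences from domains not kept were 23.2 points (17.8 to 29.0) and 28.0 points (22.0 to 33.8). For Nanog the counts were 37 (13.4%, 6.70% of all) and 90 (32.5%, 19.0% of all), with differences of 6.91 points (3.35 to 11.5) and 13.96 points (8.64 to 19.7). An Oct4 summit lay in 94 kept domains in WT (33.9%, 25.2% of all) and in 13 in KO (4.69%, 1.17% of all), with differences of 9.08 points (3.66 to 14.9) and 3.65 points (1.70 to 6.83). The KO Oct4 list holds 576 summits and the WT list 12898. Chromosome 11, with 27.4% of kept domains and 4.73% of all, held 13.1% of the WT and 10.5% of the KO Sox2 summits. For Oct4 and Nanog these shares ran from 5.38% to 8.44%. The summit comparisons were not made without chromosome 11 or within groups of like WT level, and its part in them was not tested. Of the 13 kept domains with a KO Oct4 summit 8 had 50% or more multi-copy words, and among the other domains the share was 2.13% against 1.03%, a difference of 1.10 points (-0.145 to 3.86) that includes 0. By class, the WT Oct4 difference was 18.7 points (1.65 to 32.3) with a developmental gene start, -0.871 (-7.83 to 7.02) with another and 2.61 (-5.03 to 12.6) with none. The WT Nanog intervals of the 3 classes all include 0, with differences of 12.8, 3.52 and 3.39 points. In the developmental domains, 25 of 40 kept and 62 of 169 not kept ones held a WT Sox2 summit, 25.8 points more (8.63 to 40.8).

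The libraries were checked by H3K4me3 within 2 kb of marker gene starts. In mESCs 9 of 10 pluripotency markers had it in both genotypes, Esrrb being the exception. Cardiac markers had it at 1 of 6 in WT and 0 of 6 in KO mESCs. Of 6 fibroblast markers, looked at because the cells may grow on embryonic fibroblasts, Col3a1, Postn and Dcn lacked it in both mESC libraries and the other 3 had it. Of the neural markers 3 of 5 are in the annotation used, and all 3 had it in both mESC libraries. Week 1 EBs had it at 5 of 10 pluripotency markers in WT and 2 of 10 in KO, and EBs of weeks 2 and 3 at 8 or 9 of 10 in both genotypes.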

How the data were processed

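ChIP-seq libraries of WT and Uhrf1 KO E14 mESCs and EBs were deposited by the authors as region lists, not as counts per region in every sample. According to the submitters' processing notes and the study's methods, reads were mapped to mm9 with Bowtie2 2.1.0, reporting 1 position per read, RSEG was run with the input as control to find histone domains, and MACS to find factor summits. The deposited domain lists give a signal column, the mean read count per bin, and the authors' RSEG domain score, and the summit lists give a summit value that was not used. Uhrf1 windows of 10 kb were those above input in the authors' test. The study's methods state a normalization of read counts to mapped reads, but not whether it covers the deposited RSEG column. The study's read totals were not used and the 8 input samples were not analysed here, so no depth and no interval for reads is given.

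Overlaps of at least 1 bp were computed in Python 3.11.15 with numpy 2.4.6 and pandas 2.3.3, and tested on simulated data. Shares have Wilson and differences Newcombe 95% intervals, and with 1 library per group no test was run. Genes are the 22238 protein-coding symbols of GENCODE vM1 on NCBIM37, and a gene belongs to a domain that holds its start. CpG and multi-copy words were read from the same genome. Members, gene lists and comparisons were chosen with earlier results of these data known. Named domains are the 10 with the highest KO level, the 5 longest, the 5 with the most gene starts, those next to the 2 limits, and all with starts of developmental list genes. Named genes are those with a start there, list members kept, and 12 genes the study shows. Other names were chosen after their values were seen. Printed windows come from the 5 kept and 3 other such domains with the highest KO or WT level, and 1 of them (Hand1), over an untranslated region, was left out. Multi-copy classes, the split by chromosome 11 and the groups of WT level were chosen after seeing the data. Of the kept developmental domains, 2 are counted but not reported here by name.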

Additional observations from a re-analysis of the deposited data

Results flagged for a closer look

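H3K9me3 differed in direction between the genotypes. Kept domains overlapped H3K9me3 less often than domains not kept in WT mESCs (-5.33 percentage points) and more often in Uhrf1 KO mESCs (10.7 points). Each value rests on 1 library and the difference between them was not tested. Without chromosome 11 both values were negative, -10.3 and -1.17 points, and within 5 groups of like WT H3K27me3 level both were positive, 11.2 and 18.1 points.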

How the results depend on the processing

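No paired analysis was possible because each group held 1 library. Of 129 alternatives to 12 differences (kept minus not kept, percentage points), 100 stayed within the interval of the reported value. The cause of the other changes was not tested. Within 5 groups of like WT level (chosen after seeing the data) the values were 25.8 and 28.6 for H3K4me3 in WT and KO, 2.85 for Uhrf1 windows and 11.2 and 18.1 for H3K9me3 in WT and KO (the sign turned for Uhrf1 and for WT H3K9me3), 20.6 for gene starts, 30.7 and 12.3 for WT EB H3K27me3 at weeks 1 and 2, and 33.2 and 29.5 for KO EBs at weeks 1 and 2. With compared domains above their list's median score they were 52.7 for WT H3K4me3, -13.9 and 1.81 for H3K9me3 in WT and KO, -20.8 (sign turned) and 3.12 for WT EBs at weeks 2 and 3, and 22.9 and 20.7 for KO EBs at weeks 2 and 3. With 50% of a domain covered they were 24.4 for WT EBs at week 3 and 42.8 and 40.3 for KO EBs at weeks 2 and 3. By midpoints, H3K4me3 gave 26.9 in WT and 28.0 in KO. With no minimum of the KO level, KO H3K4me3 gave 37.5 and H3K9me3 -11.8 in WT and 2.92 in KO, and with a minimum of 2 KO H3K9me3 gave 17.0. Without chromosome 11, KO H3K9me3 turned to -1.17. Without multi-copy domains, WT H3K4me3 gave 48.2 and Uhrf1 windows -21.0. The last 2 settings were also chosen after seeing the data. Read depth was not used, so a domain missing from a list is not shown to lack the mark.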

Other observations

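Kept domains without a coding gene start differed from the others of that class as well. Of these 85 domains, 62 (72.9%) overlapped WT mESC H3K4me3, against 960 of 4457 (21.5%) of those not kept, and 22 (25.9%) were in all 6 EB H3K27me3 lists against 4.64%. At week 2 of WT EBs the order was the other way, with 54.1% against 68.6%, a difference of -14.4 points (-25.1 to -4.17). In this class 24 of the 42 kept domains with 50% or more multi-copy words were found.

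In the developmental domains a KO Sox2 summit lay in 38 of 40 kept and 120 of 169 not kept domains, a difference of 24.0 points (10.9 to 32.1). The imprinted Grb10, a growth factor receptor adaptor, lay in a kept domain of 160.2 kb that overlapped H3K27me3 in all 6 EB lists, H3K4me3 in WT but not in KO mESCs, H3K9me3 in both and a Uhrf1 window.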
